A study of Homo sapiens with 12 samples.

Results

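GALC and 7 other genes of lysosomal sphingolipid breakdown (GLA, GLB1, HEXA, ARSA, ASAH1, PSAP and SMPD1) were followed across the 12 RNA-seq libraries of the series. These 8 genes of the 58302 in the table were taken by their names, and they were chosen by values already known from the same 12 libraries, the low GALC level in the clones among them. Their levels and differences are therefore given as a description, with no test. All 4 groups are human cells of papillary thyroid carcinoma origin with no drug treatment, grown in RPMI medium with serum, and each group has 3 libraries. TPC1 is the parental line with the wild-type genotype. D11, WB1 and TD5 are Dicer1 (+/-) lines made from TPC1 by transient transfection of a CRISPR/Cas9 plasmid with 1 guide against Dicer1, the RNase that cuts precursor microRNAs. Each of the 3 grew from a single sorted cell, so each line is 1 clone and a property of the clone and of the genotype cannot be told apart. The study's methods say in general that experiments were repeated independently, but nothing in the sources used here ties the libraries of a line to separate cultures. The p-values below therefore measure the spread between these libraries, which may be technical.

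Sphingolipids are built on ceramide, and cells take them apart in lysosomes by removing one head group or sugar after another. The acid hydrolases of this chain act on lipids in internal membranes and many need small activator proteins, the saposins. Inherited loss of a single step stores its lipid in tissue: loss of GALC causes Krabbe disease, of ARSA metachromatic leukodystrophy, of GLA Fabry disease, of GLB1 GM1 gangliosidosis, of HEXA Tay-Sachs disease, of SMPD1 Niemann-Pick disease types A and B, and of ASAH1 Farber disease.

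The promoters of GALC and GLA are shown because both genes were lower in every clone library than in every TPC1 library and because the RefSeq table held them. The table (GRCh38.p14, 250 bases before to 50 after each start) matched 4 of the 8 genes, namely GALC with 4 starts and GLA, GLB1 and SMPD1 with 1 each. The first 280 bases are printed, 5′ to 3′ on the gene's own strand, which is minus for both. Capitals mark TCATGTGA in GALC, and in GLA the GC box core GGGCGG and CCAAT on either strand, which on the printed strand read GGGCGG or CCGCCC, and ATTGG. The GALC window is chr14:87993153-87993432 and the GLA window is chrX:101407896-101408175.
GALC: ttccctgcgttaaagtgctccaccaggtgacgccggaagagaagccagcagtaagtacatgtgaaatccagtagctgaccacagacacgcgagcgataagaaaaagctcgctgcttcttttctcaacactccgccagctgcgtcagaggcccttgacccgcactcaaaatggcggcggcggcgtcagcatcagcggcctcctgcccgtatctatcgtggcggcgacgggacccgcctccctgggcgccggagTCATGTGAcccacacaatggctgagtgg
GLA: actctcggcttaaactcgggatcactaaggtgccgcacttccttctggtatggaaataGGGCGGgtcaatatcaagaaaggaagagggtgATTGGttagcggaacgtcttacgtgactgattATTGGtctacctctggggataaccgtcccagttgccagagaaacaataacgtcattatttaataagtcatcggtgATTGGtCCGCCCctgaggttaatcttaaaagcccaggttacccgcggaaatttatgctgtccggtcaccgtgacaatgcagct

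The GALC window of 300 bases around the start at 87993182 held 24 CpG, against a median of 14 over the 35116 promoters of the table, and a GC content of 60.0%. TCATGTGA lay 3 bases after the start, and 351 of the 35116 promoters (1.0%) held these letters on either strand. They are a form of the M box, which MITF and its relatives TFEB and TFE3 are known to bind. TCACGTGA, the related E-box letters of many lysosomal genes, were not in this window, and 344 promoters (0.98%) held them. The GALC start furthest downstream, at 87992854, had 45 CpG and 3 GGGCGG, while the starts at 87993667 and 87993665 had 2 CpG each. The GLA window of 300 bases held 15 CpG, with GGGCGG 192 and 47 bases before the start and CCAAT 160, 128 and 53 bases before it. GLB1 held GGGCGG 3 times and SMPD1 held it 7 times, and CCAAT was in neither. GGGCGG was in 45.0% and CCAAT in 34.6% of all promoters, on either strand. TCATGTGA and TCACGTGA are 2 of the 4 letter strings searched, all of them chosen after the sequences were read, and a match is a description and not a site.

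Values are scaled reads: the authors' gene counts brought to 20000000 aligned reads per library. From the steps between values, the libraries held an estimated 12700000 to 21025000 reads, so that 3 reads, used here as the floor, correspond to 2.85 to 4.72 scaled reads. DICER1, the edited gene, measured 1101 to 1360 scaled reads in TPC1, and averaged 86.94%, 73.4% and 57.91% of the parental level in D11, WB1 and TD5. Of 7 thyroid follicular markers, PAX8 lay between 7248 and 9879 and TG between 11 and 27, while TSHR, SLC5A5 and NKX2-1 were at 0 in all libraries. FOXE1 lay between 280 and 316 in TPC1 and lower, between 93 and 171, in the clones. Keratin genes KRT8 and KRT18 were abundant and EPCAM did not pass 5 scaled reads. Markers of other cell types were at or near 0 (PTPRC at most 3, CD3E, CDH5 and DCN at 0), apart from CD68, a lysosomal membrane protein, at 921 to 1514, and the mesenchymal genes COL1A1 at 48 to 97 and PDGFRB at 112 to 192 in TPC1 and 37 to 158 in the clones, lowest in WB1. Of 5 oligodendrocyte and Schwann cell markers, the cells whose galactolipids GALC is best known for, SOX10 and MAG did not pass 3 scaled reads and MBP measured 1594 to 2620.

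GALC (galactosylceramidase, ENSG00000054983, chromosome 14, 87837820 to 87993665 in GRCh38, minus strand, 17 exons) removes galactose from galactosylceramide and from its toxic lyso form, psychosine. It measured 107, 75 and 99 scaled reads in the 3 TPC1 libraries, 46, 38 and 48 in WB1, 2, 4 and 3 in D11, and 0, 0 and 0 in TD5. TPC1 was therefore highest (93.7 ± 16.7, SD, n = 3) and WB1 next (44 ± 5.29), with no overlap between them. D11 (3.0 ± 1.0) and TD5 lay below both, at or under the floor of 3 reads in each library, where no order of the 2 is read. As estimated reads the GALC values were 112, 64 and 68 in TPC1, 39, 31 and 40 in WB1, and 1, 3 and 2 in D11. In bulk RNA, fewer cells with a transcript and less transcript per cell cannot be told apart.

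TPC1 had 2.17 times the GALC level of WB1 (95% interval 1.73 to 2.74), where WB1 kept 46.98% of the parental level. Against D11 the ratio was 37.5, with an interval of 17.0 to 103 because only 6 reads stand behind the 3 D11 libraries together. Set against the floor of 3 reads per library, GALC was at least 22.1-fold lower in TD5 than in TPC1. The intervals and the floor cover counting error only, and reads without molecular identifiers are not independent molecules. D11 and TD5 are not ordered here, because both lie at or under the floor. GALC passed the filter on low values, 1 per 1000000 in at least 3 libraries, only through TPC1 and WB1. Of the annotated genes that overlap GALC, the long noncoding RNA ENSG00000258807 on the same strand measured 0 to 4 scaled reads and the others at most 2.

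**Figure D1:**
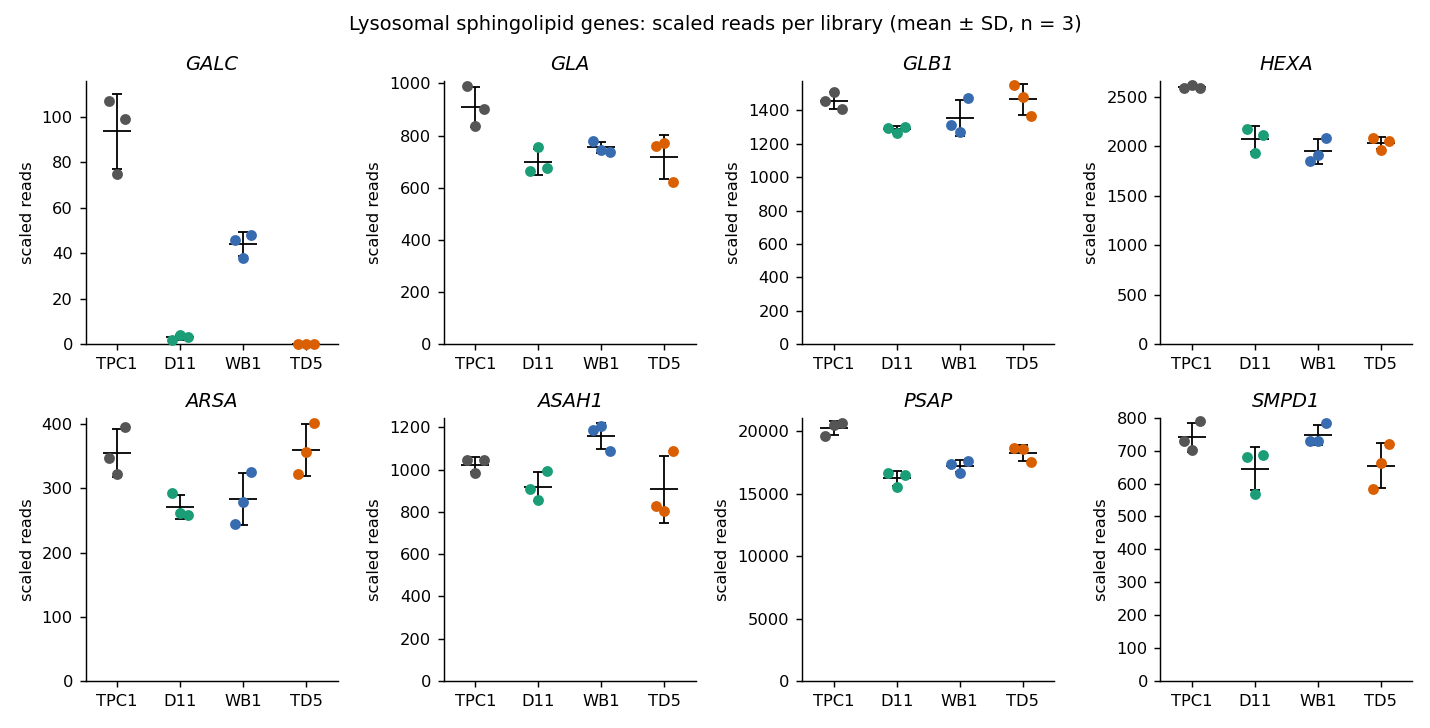
Scaled reads (vertical axis, linear, from 0) of the 8 genes in the 3 libraries of each line; points are libraries, and the black mark and bar are the mean and SD (n = 3). GALC falls from 75 to 107 in TPC1 to 0 in TD5, while each of the other 7 genes averages 75.03% or more of its TPC1 mean in every line.

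ARSA, arylsulfatase A, takes the sulfate off sulfatide and so delivers galactosylceramide to GALC. Its levels were 347, 323 and 396 scaled reads in TPC1, 293, 262 and 258 in D11 and 245, 279 and 325 in WB1, while TD5 had 322, 356 and 402. All D11 libraries lay below all TPC1 libraries, WB1 overlapped TPC1 by 1 library, and TD5 covered the same range as TPC1. On the log2(value per 1000000 + 1) scale used for all differences below, the D11, WB1 and TD5 means of ARSA differed from TPC1 by -0.36, -0.31 and 0.02 (SE 0.11). ARSA RNA thus averaged 76.27% of its parental level in D11 and 101.3% in TD5, the clones in which GALC was at or under the floor. These values are RNA levels and do not measure the enzyme's activity.

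GLA, alpha-galactosidase A, removes the outer galactose of globotriaosylceramide. It measured 991, 838 and 904 scaled reads in TPC1, 663, 757 and 675 in D11 and 780, 745 and 739 in WB1, with TD5 at 761, 772 and 622. Every clone library was below the lowest TPC1 library, and the clones overlapped each other, with differences from TPC1 of -0.37, -0.26 and -0.34 in D11, WB1 and TD5 (SE 0.09). RPL36A and the readthrough gene RPL36A-HNRNPH2 overlap GLA on the opposite strand at 2910 to 3733 and 3522 to 4563 scaled reads. The library kit was stranded, but the strand setting of the counting is not given in the sources used here, so the GLA values are uncertain by whatever reads these neighbours share with it.

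HEXA encodes the alpha subunit of beta-hexosaminidase A, which trims ganglioside GM2. It measured 2587, 2622 and 2588 scaled reads in TPC1, 2180, 1932 and 2114 in D11 and 1851, 1911 and 2088 in WB1, while TD5 had 2086, 1968 and 2052. The TPC1 libraries differed little from each other (2599 ± 19.9, SD, n = 3) and every clone library lay below them, on average at 79.85%, 75.03% and 78.31% of TPC1 in D11, WB1 and TD5. The differences were -0.32, -0.41 and -0.35 (SE 0.06). A protein-coding readthrough gene on the same strand (ENSG00000260729, 888 to 1285 scaled reads) and a long noncoding RNA on the other (ENSG00000261460, 1141 to 1607) cover parts of HEXA. How reads in shared exons were counted is not given in the sources used here, so the HEXA values are uncertain by such reads. Both overlapping annotations also ranged highest in TPC1.

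GLB1, beta-galactosidase, acts before HEXA on ganglioside GM1. Its levels were 1458, 1511 and 1406 scaled reads in TPC1, 1294, 1263 and 1301 in D11 and 1312, 1273 and 1476 in WB1, with TD5 at 1553, 1478 and 1365. D11 alone was below TPC1 in all libraries (-0.18, SE 0.07), and WB1 (-0.11) and TD5 (0.01) overlapped TPC1. The 3 sugar-removing enzymes other than GALC thus gave different pictures, since GLA and HEXA were lower in all clones and GLB1 in D11 alone.

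SMPD1, acid sphingomyelinase, splits sphingomyelin into ceramide and phosphocholine, and ASAH1, acid ceramidase, completes the chain by splitting ceramide. SMPD1 measured 728, 703 and 789 scaled reads in TPC1, 680, 569 and 686 in D11 and 729, 730 and 783 in WB1, while TD5 had 582, 661 and 719. ASAH1 measured 1044, 982 and 1045 in TPC1, 909, 858 and 992 in D11 and 1185, 1205 and 1090 in WB1, with TD5 at 827, 803 and 1087. SMPD1 was lower in all D11 libraries than in TPC1 (-0.20, SE 0.09) and overlapped TPC1 in WB1 (0.01) and TD5 (-0.18). ASAH1 was the one gene of the 8 with a clone above the parent in all libraries, WB1 (0.18, SE 0.10; 26.5% of all tested genes had WB1 above TPC1 in this way), and this difference was -0.02 after a correction for GC content. In D11 and TD5 ASAH1 overlapped TPC1, with -0.15 and -0.19.

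PSAP, prosaposin, is the common precursor of saposins A to D, of which saposin A serves GALC, saposin B serves ARSA and GLA, and saposin D serves ASAH1. It measured 19597, 20479 and 20675 scaled reads in TPC1, 16676, 15518 and 16510 in D11 and 17346, 16656 and 17594 in WB1, while TD5 had 18669, 18550 and 17538. All 9 clone libraries were below TPC1, with means of 80.17%, 84.93% and 90.13% of the parent in D11, WB1 and TD5. The differences were -0.32, -0.24 and -0.15 (SE 0.05). TD5, the clone with no GALC read, had the highest PSAP mean of the clones, and its libraries overlapped those of WB1.

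**Figure D2:**
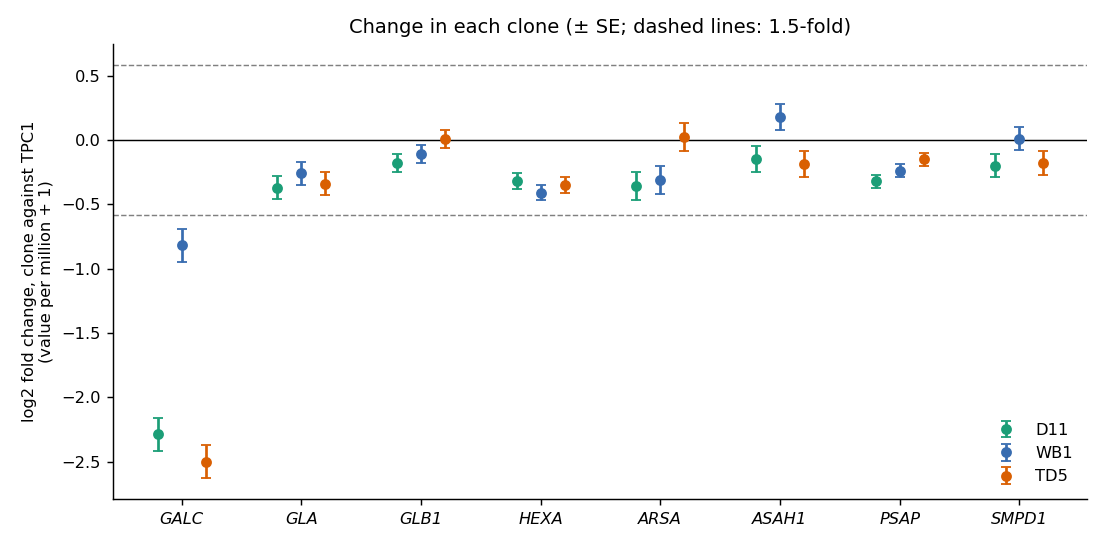
Log2 fold change of each clone against TPC1 for the 8 genes (vertical axis, log2 of value per 1000000 + 1; bars are SE; dashed lines mark 1.5-fold in either direction). GALC reaches -2.29 in D11 and -2.50 in TD5, and the other 7 genes lie between -0.41 and 0.18.

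A gene was called changed at a Benjamini-Hochberg adjusted p under 0.05 over all 16027 tested genes, with a change of at least 1.5-fold, in the limma fit. Of the 24 differences of these 8 genes from TPC1, 3 met that rule, GALC in each clone, while 4.84%, 4.99% and 2.6% of all tested genes were called in D11, WB1 and TD5, and 1.95%, 1.59% and 1.48% were called lower. Because these contrasts also chose the genes, nothing is read from that count. Under the same fit the GALC differences of D11, WB1 and TD5 were -2.29, -0.82 and -2.50 (SE 0.13), values that depend on the pseudocount where reads are few. GALC, GLA, HEXA and PSAP, 4 of the 8 genes, had all 9 clone libraries below all 3 TPC1 libraries, as had 6.51% of all tested genes. D11 lay below TPC1 in all libraries for 7 of the 8 genes (21.2% of all tested genes), WB1 for 4 (18.8%) and TD5 for 4 (14.6%). Again these are descriptions of genes chosen with their values known. The summed level of the 7 genes other than GALC was 27340 ± 536 scaled reads in TPC1, and 22130 ± 845, 23450 ± 648 and 24390 ± 535 in the D11, WB1 and TD5 clones (SD, n = 3). The bulk of that sum is PSAP, and without it the sums were 7087 ± 94.8, 5895 ± 220.3, 6249 ± 219.5 and 6139 ± 104.7.

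Levels of different genes were compared per kilobase of transcript, with the length of a single annotated transcript for each gene. Which transcripts the reads came from is not known, so close ranks are uncertain beyond the spread between libraries. In TPC1 the order was PSAP (7370 scaled reads per kb), GLA (691), GLB1 (578), HEXA (543), ASAH1 (368), SMPD1 (307), ARSA (82.8) and GALC (24.7), and no neighbours in it overlapped between libraries. GALC was thus the lowest of the 8 already in the parent, followed upward by ARSA, the other galactolipid enzyme. PSAP was first and ARSA and GALC last in all 4 lines. In the clones some neighbours did overlap: GLA and GLB1 in all 3 clones (GLB1 ranking above GLA in TD5), ASAH1 and HEXA in WB1, and ASAH1 and SMPD1 in TD5.

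GALC and DICER1 are on the same chromosome, with 7.09 Mb between them, and the tested genes around GALC were therefore listed. Of the 41 tested genes between both, none was called lower in any clone at the limma threshold, and 1, 2 and 1 were called higher in D11, WB1 and TD5, where 2.89%, 3.39% and 1.12% of all tested genes were. The medians of the 41 differences were 0.16, 0.14 and 0.08, beside 0.05, 0.06 and 0.0 over all tested genes, and the lowest were -0.44, -0.14 and -0.19. At an unadjusted p under 0.05, 4, 1 and 1 of the 41 were lower (17.8%, 16.6% and 14.3% of all tested genes) and 17, 16 and 9 were higher (26.9%, 26.1% and 12.8%). Voom on estimated reads called 0 lower in each clone and 3, 2 and 1 higher. The low value at GALC was thus not shared by the tested genes next to it on the DICER1 side. On the other side FLRT2, the nearest tested gene listed, lay more than 1 Mb away. It differed by 0.34, 0.37 and -0.35 in D11, WB1 and TD5 and was not called. Whether the low value extends to that side close to GALC was not tested. Within 1 Mb of GALC there were 6 tested genes (SPATA7, PTPN21, AL162171.2, ZC3H14, EML5 and TTC8), all on the DICER1 side, with medians of 0.19, 0.16 and 0.05. EML5 was the one of these called, higher in D11 (0.60, limma adjusted p = 0.0119). SERPINA1 in the same interval, the alpha-1-antitrypsin gene, was called higher in WB1 (1.04, limma adjusted p = 0.000363) and TD5 (0.88, limma adjusted p = 0.00268).

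**Figure D3:**
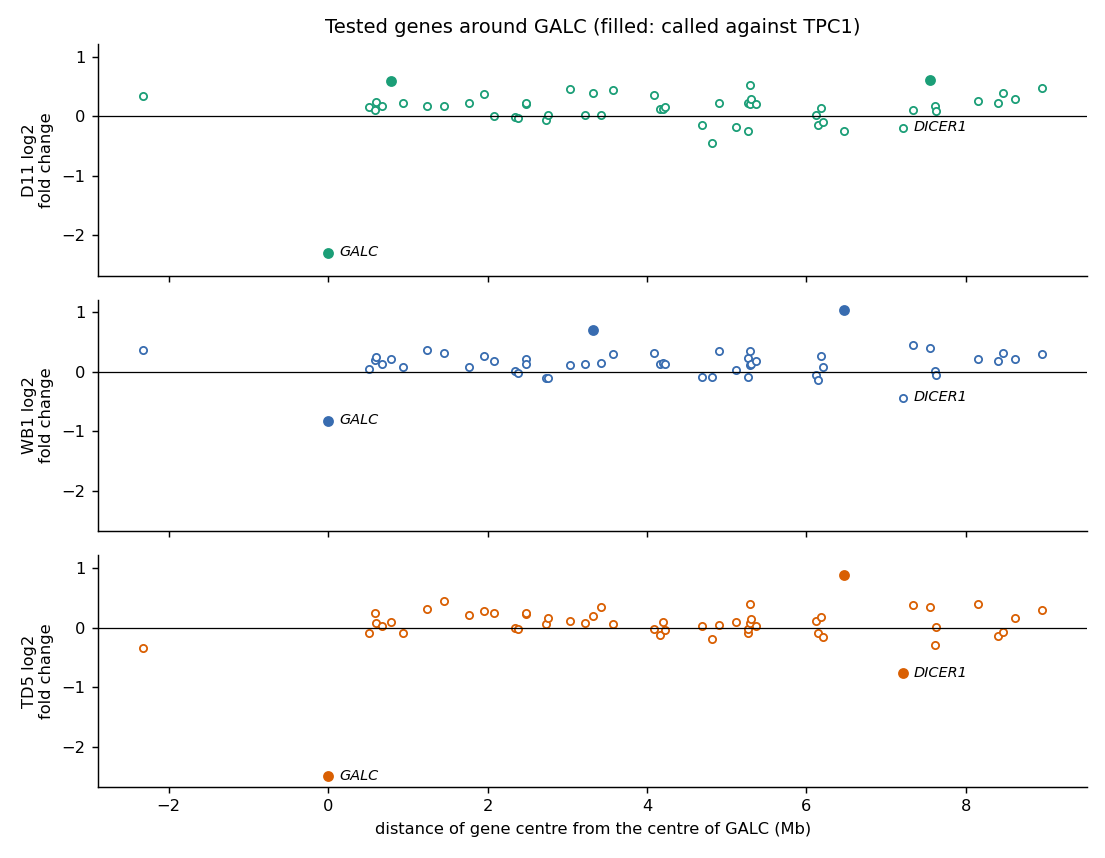
Log2 fold change against TPC1 (vertical axis, 1 panel per clone) of the tested genes around GALC by the distance of each gene's centre from that of GALC in Mb; filled points were called. GALC stands alone at the bottom of each panel, and the 6 genes within 1 Mb lie between -0.10 and 0.60.

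Across the 12 libraries, the tested genes whose log2 level correlated most with GALC were APOBEC3G, a cytidine deaminase of antiviral defence (Pearson r = 0.963), EMC10, a subunit of the ER membrane complex (0.946), PTPRR, a receptor-type tyrosine phosphatase (0.942), ARMCX4 (0.936) and VDR, the vitamin D receptor (0.927). Libraries of a line share their cells and depth differs between libraries, so the 12 points are not independent and the correlations are descriptive. EMC10 averaged 392.7 scaled reads in TPC1, 58.0 in WB1, 10.7 in TD5 and 3.0 in D11. APOBEC3G averaged 201.0 in TPC1, 181.7 in WB1, 129.3 in TD5 and 124.7 in D11, with overlapping libraries in TD5 and D11. PTPRR averaged 89.0, 41.3, 28.3 and 18.7 in TPC1, WB1, D11 and TD5. ARMCX4 lies close to GLA, since it spans 101418287 to 101533459 on chromosome X and GLA spans 101393273 to 101408012. Of the other 7 sphingolipid genes, GLA was most like GALC (r = 0.784), followed by SMPD1 (0.673), HEXA (0.609), PSAP (0.598), ASAH1 (0.585), GLB1 (0.219) and ARSA (0.155).

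To set the 8 genes in their pathway, 112 companion genes of 5 lists were examined, of which 107 passed the filter. At the limma threshold 4 were called in D11 (1 higher, 3 lower; 3.74% of those tested), 5 in WB1 (4 higher, 1 lower; 4.67%) and 1 in TD5 (lower; 0.935%), beside 4.84%, 4.99% and 2.6% of all tested genes. The TD5 count was 0 without TPC1 replicate 1 and 5 without TD5 replicate 2. Between clones, 3 companion genes were called for TD5 against D11 (2.8%, beside 3.99% of all genes), 2 for TD5 against WB1 (1.87%, beside 2.33%) and 0 for WB1 against D11 (beside 2.85%). For WB1 against D11, 27 were higher and 7 lower at an unadjusted p under 0.05 (10.2% and 9.03% of all tested genes), and voom called 2 (beside 3.53%).

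The 13 partners of lysosomal sphingolipid breakdown had medians of -0.16, -0.06 and 0.02 in D11, WB1 and TD5, beside 0.05, 0.06 and 0.0 over all genes. In D11, limma called 2 lower (1.95% of all tested genes were) and 11 did not pass. At an unadjusted p under 0.05, 8 differed in D11 (44.6% of all tested genes did), and voom called 2 lower (7.33% were called in either direction). In WB1 and TD5 limma called 0. There 8 and 7 had an unadjusted p under 0.05, beside 42.7% and 27.1% of all tested genes, and voom called 0 and 1, beside 7.94% and 3.41%. NEU1, the sialidase that works on gangliosides in complex with cathepsin A, fell from 1546, 1616 and 1723 scaled reads in TPC1 to 1099, 1000 and 1123 in D11 (-0.59, SE 0.07, limma adjusted p = 1.2e-05), and dropped under 1.5-fold without TPC1 replicate 3 (-0.55), without D11 replicate 2 (-0.54), with the GC correction (-0.55) and with a pseudocount of 4 (-0.57). NEU1 was also below TPC1 in all WB1 and TD5 libraries, without passing 1.5-fold (-0.27 and -0.33, limma adjusted p = 0.00704 and 0.00388). NAAA, an acid amidase related to ASAH1, fell from 109, 102 and 107 to 66, 70 and 52 in D11 (-0.61, SE 0.12, limma adjusted p = 0.00153), and dropped under 1.5-fold without D11 replicate 3 (-0.52) and with a pseudocount of 4 (-0.38). In TD5 NAAA measured 65, 83 and 62, all below TPC1, without passing 1.5-fold (-0.49, limma adjusted p = 0.0131), and was called in 3 of 22 alternatives. In WB1 it overlapped TPC1 (-0.06).

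Among 13 tested genes of glycosphingolipid synthesis, 1 was called in D11, 2 in WB1 and 1 in TD5, beside 4.84%, 4.99% and 2.6% of all tested genes. UGT8, which makes galactosylceramide, the GALC substrate, measured 296, 250 and 281 scaled reads in TPC1, 249, 252 and 310 in D11 and 347, 361 and 371 in WB1, with TD5 at 171, 173 and 170. It fell in TD5 (-0.62, SE 0.10, limma adjusted p = 0.000563), and this call was lost without TPC1 replicate 1 (-0.58) and with a pseudocount of 4 (-0.50). UGT8 was also lower in TD5 than in WB1 (-0.99, limma adjusted p = 5.28e-06) and than in D11 (-0.60, limma adjusted p = 0.000503). The last of these calls was lost without D11 replicate 3 (-0.50), with median-of-ratios scaling (-0.55), with corrections for GC content (-0.39) or transcript length (-0.55) and with a pseudocount of 4 (-0.47). TD5, the clone with no GALC read, was also the clone lowest in UGT8 RNA, and D11, at or under the GALC floor, overlapped TPC1 for UGT8. WB1, where GALC was also lower than in TPC1, lay above TPC1 for UGT8 in all libraries (0.36, not called). A link between the 2 genes was not tested.

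B4GALT6, a lactosylceramide synthase, rose in D11 (0.78, limma adjusted p = 0.00102) and WB1 (0.85, limma adjusted p = 0.000501). Both calls were lost after a correction for GC content (0.41 and 0.58). B3GALT4, which makes ganglioside GM1, was called higher in WB1 (0.66, limma adjusted p = 0.0147) from levels of 10, 20 and 2 in TPC1 to 24, 28 and 29, and without TPC1 replicate 3, the library at 2, the difference was 0.44 and the call was lost, as with a pseudocount of 4 (0.24). Of the 27 tested genes of ceramide, sphingomyelin and sphingosine metabolism, SPTLC3, a subunit of the enzyme that starts sphingolipid synthesis, was the one called, higher in WB1 (637, 805 and 587 in TPC1, 1335, 1197 and 1194 in WB1; 0.87, limma adjusted p = 2e-05). In WB1, 3.39% of all tested genes were called higher. SPTLC3 was also above TPC1 in all D11 and TD5 libraries (0.46 and 0.44), without passing 1.5-fold.

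No gene of the 30 other lysosomal hydrolases tested was called against TPC1 in any clone by limma, beside 4.84%, 4.99% and 2.6% of all tested genes. At an unadjusted p under 0.05, 21, 14 and 10 of them differed in the D11, WB1 and TD5 comparisons, beside 44.6%, 42.7% and 27.1% of all tested genes, and voom called 1, 2 and 0, beside 7.33%, 7.94% and 3.41%. Their medians were -0.15, -0.06 and -0.05 in D11, WB1 and TD5, and with no minimum fold 14 were lower and 4 higher in D11 at the adjusted p (13.4% and 19.9% of all tested genes were lower and higher by that rule). CTSD, the aspartic protease cathepsin D, averaged 11880 in TPC1 and 8487 in D11 (-0.48), and GAA, acid alpha-glucosidase, 1055 and 894.3 (-0.23). Neither was called. In TD5 GAA was above TPC1 in all libraries (1188 to 1283; 0.22), and IDS of the same list was higher than TPC1 in D11 (0.21). Between clones, cathepsin B (CTSB), picked after its value was seen, was higher in TD5 than in D11 (0.61, limma adjusted p = 5.37e-05), and dropped under 1.5-fold without D11 replicate 2 (0.58).

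Of 24 genes of the lysosomal membrane and biogenesis, SORT1 was called in D11 and WB1 and RRAGD in WB1. Of all tested genes, 4.84%, 4.99% and 2.6% were called in D11, WB1 and TD5. SORT1, sortilin, a receptor that carries prosaposin and acid sphingomyelinase to lysosomes, measured 513, 502 and 532 scaled reads in TPC1, 180, 205 and 196 in D11 and 272, 211 and 182 in WB1, while TD5 had 391, 413 and 335. It fell in D11 (-1.33, SE 0.12, limma adjusted p = 6.79e-07) and WB1 (-1.17, limma adjusted p = 5.64e-06), and both calls held under all 22 alternatives. In TD5 its difference was -0.43 and did not pass 1.5-fold. SORT1 was higher in TD5 than in D11 (0.90, limma adjusted p = 6.15e-05) and than in WB1 (0.74, limma adjusted p = 0.000769). RRAGD, a GTPase of lysosomal nutrient sensing, was called higher in WB1 (0.65, limma adjusted p = 0.00652), a call lost with corrections for GC content (0.49) or transcript length (0.57) and with a pseudocount of 4 (0.53). The transcription factors whose letters were searched in the promoters were not called: MITF differed by -0.19, -0.32 and -0.10 in D11, WB1 and TD5, TFEB by -0.02, 0.25 and 0.30, and TFE3 by -0.24, -0.19 and -0.11.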

How the data were processed

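The authors prepared stranded mRNA libraries and sequenced them. The submitters' processing notes name STAR 2.5.3a, HTSeq 0.9.1 and GRCh38. The deposited values are gene counts that the authors normalized to 20000000 aligned reads and rounded up, so they were handled as a score, for which count models are unsuited (library sums 20009833 to 20014191). Reads per library were estimated from the steps between whole numbers, and by likelihood in TPC1 replicate 1, which has no gaps. Each value was expressed per 1000000 of its library's sum, 1 was added before taking log2, and limma 3.58.1 (R 4.3.3) was run on the result (trended prior, 1 mean per line, all 12 libraries). Genes needed 1 per 1000000 in at least 3 libraries (16027 of 58302). A gene was called at 1.5-fold or more with an adjusted p (Benjamini-Hochberg) below 0.05.

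The 8 genes and the companion lists were chosen with earlier results of these data known. The text names those genes, DICER1, up to 6 called genes per companion list, the 5 genes most correlated with GALC, up to 6 called genes between GALC and DICER1, and genes overlapping the 8. Outside this rule it names CTSD, GAA, IDS, CTSB, MITF, TFEB, TFE3, the cell markers and neighbours of GALC that were not called. Positions are from GENCODE 44. Same-numbered libraries of D11 and TD5 deviated together (correlations 0.163, 0.225 and 0.5), the only 2 lines in which all 3 pairs were above 0.1. Negative correlations also occurred, for TPC1 with D11 (-0.342, -0.214 and -0.204) and WB1 with TD5 (-0.1, -0.326 and -0.376). The reported fit has no block, and the blocked fit is an alternative. In data simulated for D11 against TPC1 (15874 genes), 92% of 2-fold and 87.8% of 0.5-fold changes were recovered. The simulation gave all genes the same assumed dispersion and held no changes of 1.5-fold, so these rates need not hold for the real libraries. Alternatives covered the pseudocount, filter, scaling, GC content, transcript length, the minimum fold, a replicate block, each library left out, and limma's voom on estimated reads, which was added after seeing the data. Values of a few listed genes are not reported here.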

Additional observations from a re-analysis of the deposited data

Results flagged for a closer look

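UGT8, SORT1 and CTSB, 3 companion genes, differed between clones by the limma fit. UGT8 was lower in TD5 than in D11 by a log2 difference of -0.60 and than in WB1 by -0.99, with every TD5 library below every D11 and WB1 library. Over the alternatives the adjusted p of the former ran from 0.000421 to 0.00838, and the change dropped under 1.5-fold in 5 of 22. SORT1 was higher in TD5 than in D11 by 0.90 and than in WB1 by 0.74, again with libraries that did not overlap. Both SORT1 calls held in all 22 alternatives, with adjusted p from 6.56e-06 to 0.000604 and from 9.34e-05 to 0.0091. CTSB, picked after its value was seen, was higher in TD5 than in D11 by 0.61, with adjusted p from 9.87e-06 to 0.000732 over the alternatives and a change under 1.5-fold in 1 of 22, without D11 replicate 2.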

How the results depend on the processing

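The sign of GALC held in every alternative that gave a value. Its log2 difference was -4.26, -1.05 and -5.56 in D11, WB1 and TD5 with a pseudocount of 0.1, -1.06, -0.48 and -1.11 with 4 (the WB1 call was lost), and -4.96, -1.09 and -7.05 with voom on estimated reads. With a correction for GC content it was -2.49 in D11 and -1.0 in WB1. Leaving out 1 library gave -2.42 to -2.21, -0.95 to -0.74 and -2.62 to -2.41. For TD5 against D11, GALC was not called as reported (-0.20), but was called lower with a pseudocount of 0.1 and with voom. That difference ran from -2.09 to -0.04 over 21 alternatives. At 5 per 1000000 GALC was not tested, so 0 of the 8 genes were called, and with no minimum fold 13 of the 24 differences were, all lower. By that rule 2144, 1973 and 1053 of the 16027 tested genes were lower in D11, WB1 and TD5, and 3185, 2983 and 853 were higher. The 8 genes were chosen with these contrasts known, so nothing is read from the 13.

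Companion calls numbered 2 in D11 with a pseudocount of 4 or the GC correction. In WB1 they were 8 with a pseudocount of 0.1 or voom and 3 with 4. In TD5 they were 2 with 0.1 or voom and 0 with 4. For WB1 against D11, 0 were called as reported (20 at the adjusted p alone) and 2 with 0.1 or voom. With no minimum fold the counts were 52, 41 and 14 against TPC1, 20 for WB1 against D11, 32 for TD5 against D11 and 15 for TD5 against WB1. These are of 107 tested companion genes, and the counts over all genes against TPC1 are given above. Between clones, all-gene counts by that rule were 745 higher and 548 lower for WB1 against D11. They were 1351 and 2370 for TD5 against D11, and 725 and 1461 for TD5 against WB1. Leaving out 1 library gave 3 to 6 in D11, 5 to 6 in WB1, 0 to 5 in TD5 (0 without TPC1 replicate 1, 2 without TPC1 replicate 2 or TD5 replicate 1, 5 without TD5 replicate 2), 0 to 1 for WB1 against D11 (1 without D11 replicate 1 or 2 or WB1 replicate 2), 2 to 4 for TD5 against D11 and 2 to 4 for TD5 against WB1 (4 without TD5 replicate 3). The replicate block, paired by number, left 4, 5 and 1 companion calls against TPC1 and 3 for TD5 against D11, and changed no other call.

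Over all genes, calls in D11 numbered 463 higher and 312 lower, and 340 and 363 with median-of-ratios scaling, or 294 and 310 with the GC correction. The sign of ASAH1 and SMPD1 in WB1 and of ARSA and GLB1 in TD5 changed in 1 to 3 of 22 alternatives. Depth limits GALC in D11 and TD5, where changes below 3 reads per library are not detectable.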
